A study of Mus musculus with 6 samples.

Results

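The mitochondrial genome of the mouse carries 37 genes, and the deposited count files of striatum, which receives the main inputs of the basal ganglia, held all 37 of them among 55335 gene identifiers. The genes were taken as all gene models of chromosome M in GENCODE release M21, matched by Ensembl identifier, and comprise 13 mRNA genes, 2 rRNA genes and 22 tRNA genes. RNA-seq was performed on 3 control samples, labelled as wild-type C57 mice, and on 3 samples labelled as C57 mice overexpressing PDE5A, an enzyme that breaks down cyclic GMP. The study asked which molecular changes follow PDE5A overexpression in the striatum. The labels name neither the means of overexpression, nor the age of the mice, nor any treatment of the control mice. They also do not state that each sample is a different animal, so every p-value here reflects sample-to-sample spread that may be technical. Values for single libraries are listed below in the order of replicates 1, 2 and 3.

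Mitochondrial DNA is a small circular genome present in many copies per cell. Both of its strands are transcribed as long precursors by the polymerase Polrmt, and tRNAs lying between the other genes are cut out to release mRNAs and rRNAs, most of which then receive short poly(A) tails. The mRNAs encode core subunits of respiratory chain complexes I, III and IV and of the ATP synthase (complex V), while complex II is encoded wholly in the nucleus. In brain, these complexes supply most of the ATP that neurons use to maintain ion gradients and synaptic transmission.

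In these 6 libraries the mitochondrial genes took 9.005% to 11.6% of all counts, and none of the 37 passed a test between overexpression and control that was adjusted over all genes. Fitted fold changes of overexpression over control were negative for 36 of 37, with a median of −0.14 on the log2 scale, and this median was −0.05 when control replicate 2 was left out. Another feature of the files bears on the mRNA levels: for 7 mRNA genes, reads were also counted at nuclear pseudogene copies on chromosome 1 whose sequence is the same or nearly so.

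The copies are shown first, because they decide how the mRNA counts can be read. The annotation holds 7 unprocessed pseudogenes on the minus strand of chromosome 1, within chr1:24611535-24616197 of mm10, that align to mt-Co1, mt-Co2, mt-Atp6, mt-Co3, mt-Nd3, mt-Nd4l and mt-Nd4. The coding sequence of mt-Nd4l, a small membrane subunit of complex I, is printed 5′ to 3′, from the GENCODE M21 transcripts, as the example of a gene copied over almost its whole length. The pseudogene Gm10222 matches its first 294 bases at every position. Capitals mark the 7 bases at the end that also belong to the next gene, mt-Nd4.
mt-Nd4l, chrM:9877-10173, plus strand: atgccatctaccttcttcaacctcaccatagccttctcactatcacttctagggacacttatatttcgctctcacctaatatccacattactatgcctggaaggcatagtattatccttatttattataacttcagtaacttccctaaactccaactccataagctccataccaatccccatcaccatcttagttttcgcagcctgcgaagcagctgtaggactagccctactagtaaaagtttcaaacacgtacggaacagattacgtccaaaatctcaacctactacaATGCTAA

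Only 2 base differences were found over all 7 alignments, and both lie close to the start of the aligned stretch. They are shown in capitals below, with positions counted from base 1 of the mitochondrial gene model, the mitochondrial base given first and the base of the copy last. T3C lies in the first codon of mt-Nd3, another membrane subunit of complex I, and A1066T lies at the beginning of the copied final part of mt-Co1, the catalytic subunit of complex IV.
mt-Nd3, chrM:9459-9491, plus strand: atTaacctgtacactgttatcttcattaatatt
Gm28438, chr1:24613087-24613119, minus strand: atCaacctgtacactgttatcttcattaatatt
mt-Co1, chrM:6390-6423, plus strand: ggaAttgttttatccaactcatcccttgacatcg
Gm29216, chr1:24616155-24616188, minus strand: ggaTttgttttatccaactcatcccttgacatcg

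For mt-Co2, mt-Co3 and mt-Nd4l, the copy held almost the same count as the mitochondrial gene. For mt-Co2, a subunit of complex IV that takes up electrons from cytochrome c, the control libraries held 207277, 256677 and 219830 counts, and the overexpression libraries 205518, 184403 and 175958. Its copy Gm28661 held 207305, 256827 and 219991 counts in the control libraries against 205629, 184491 and 176062 under overexpression. The copy thus had between 100.014% and 100.07% of the count of mt-Co2 in every library.

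The same held for mt-Co3, a further core subunit of complex IV, whose copy Gm28437 had 99.8% to 99.9% of its count. For mt-Nd4l the copy Gm10222 had 99.5% to 99.9%. mt-Co3 and its copy are identical over 783 aligned bases.

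Reads that lie within an identical stretch cannot be assigned by sequence to the mitochondrial or to the nuclear copy. The deposited counts are whole numbers. The sources used here do not give whether the counting program entered such reads at both places, divided them equally or handled them in another way. Which of these was done was not tested. The counts of these genes are therefore uncertain by up to the count of the copy.

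For the other copied genes the counts differed more. Gm28438, which matches 345 of the 348 bases of mt-Nd3 with 1 mismatch, had 88.2% to 90.2% of its count. Gm28439, which matches the first 876 of the 1378 bases of mt-Nd4, had 36.97% to 38.6% of its count, and Gm29216, which matches the last 483 of 1545 bases of mt-Co1, had 10.98% to 11.95%. mt-Nd4 is a proton-pumping subunit of complex I. Gm10925, identical over 678 of 681 bases, went the other way, with 105.9% to 106.5% of the count of mt-Atp6, the proton-channel subunit of the ATP synthase.

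mt-Atp6 overlaps its upstream neighbour mt-Atp8 by 43 bases, while M21 has no model of mt-Atp8 on chromosome 1 beside Gm10925. The sequence of mt-Atp8, a short membrane subunit of the ATP synthase, is printed to show this overlap in capitals. Whether the overlap accounts for the surplus of Gm10925 was not tested.
mt-Atp8, chrM:7766-7969, plus strand: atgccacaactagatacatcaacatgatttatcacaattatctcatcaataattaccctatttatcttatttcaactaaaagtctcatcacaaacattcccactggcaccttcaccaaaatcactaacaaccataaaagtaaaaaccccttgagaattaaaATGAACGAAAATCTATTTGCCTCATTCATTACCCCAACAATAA

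**Figure D1:**
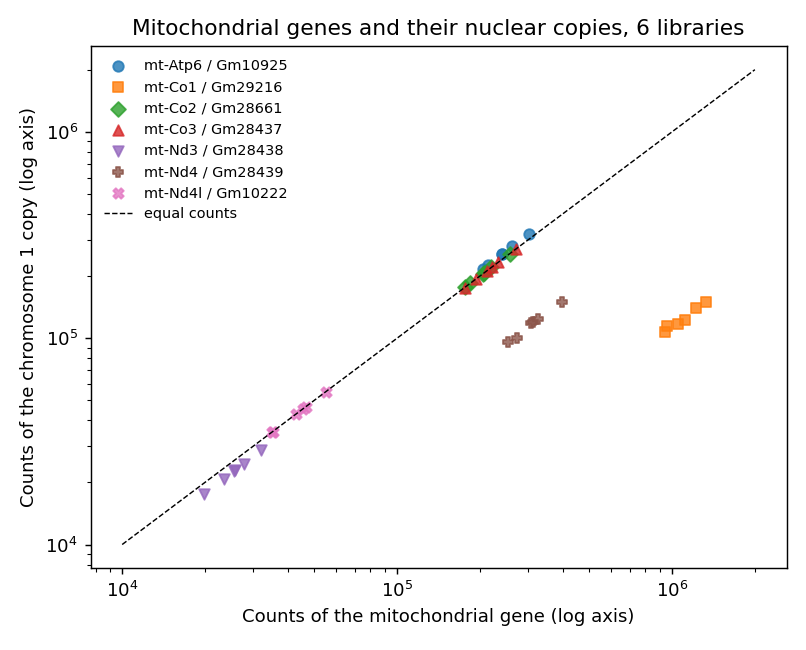
Counts of each mitochondrial gene (horizontal axis, log scale) against counts of its chromosome 1 copy (vertical axis, log scale), with 1 symbol per library and a dashed line of equal counts. The symbols for mt-Co2, mt-Co3 and mt-Nd4l lie on the line in all 6 libraries, those for mt-Atp6 lie slightly above it, and those for mt-Nd3, mt-Nd4 and mt-Co1 lie below it.

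A further 10 nuclear pseudogenes aligned to mitochondrial genes over at least 100 bases with 90.7% to 97.6% identity, and they behaved differently. The highest count of any of them in any library was 5364, for Gm13340, which matches mt-Co1 over its whole length with 97.6% identity. Gm13340 had at most 0.480% of the count of mt-Co1. In percent of the mitochondrial gene, the highest of them was Gm13341, with 1.26% to 1.48% of the count of mt-Co2. The rRNA genes, mt-Nd1 and mt-Atp8 had no such alignment, and the tRNA genes are shorter than 100 bases and could not give one. Sequence outside annotated transcripts was not examined.

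The chromosome 1 copies together held 2.39%, 2.91% and 2.62% of counts in the control libraries, against 2.48%, 2.65% and 2.23% under overexpression. The groups overlapped. Control replicate 2 was the highest and overexpression replicate 3 the lowest, as for the mitochondrial genes themselves.

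The 37 mitochondrial genes accounted for 9.58%, 11.6% and 10.6% of counts in the control libraries, against 9.77%, 10.4% and 9.005% under overexpression. The means were 10.6% ± 1.02 (SD, n = 3) and 9.73% ± 0.712 (SD, n = 3). The difference of −0.876 percentage points was smaller than the spread in control, and an exact two-sided permutation test over samples gave p = 0.3, where 0.1 is the smallest p that 3 samples against 3 can give. Adjusted over the 13 shares and ratios tested in this way, p was 0.709. Leaving out control replicate 2 made the difference −0.372, leaving out control replicate 1 made it −1.39 and leaving out overexpression replicate 3 made it −0.512. It was −1.60 when overexpression replicates 1 and 2 were both left out. With the chromosome 1 copies added, the share was 13.2% ± 1.28 in control and 12.2% ± 0.922 in overexpression (SD, n = 3).

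Messenger RNA genes made up most of this. The 13 mRNA genes held 8.66%, 10.5% and 9.54% of library counts in control and 8.88%, 9.38% and 8.13% in overexpression. The 2 rRNA genes held 0.864%, 1.02% and 1.02% in control and 0.828%, 0.988% and 0.818% in overexpression, and the 22 tRNA genes held 0.0578%, 0.0718% and 0.0695% in control and 0.0633%, 0.0644% and 0.0602% in overexpression. In each class the groups overlapped, and exact permutation tests over the samples gave p = 0.4 for mRNA, p = 0.2 for rRNA and p = 0.5 for tRNA genes. The labels do not name the step by which RNA was selected before library preparation, which bears on the share of rRNA.

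**Figure D2:**
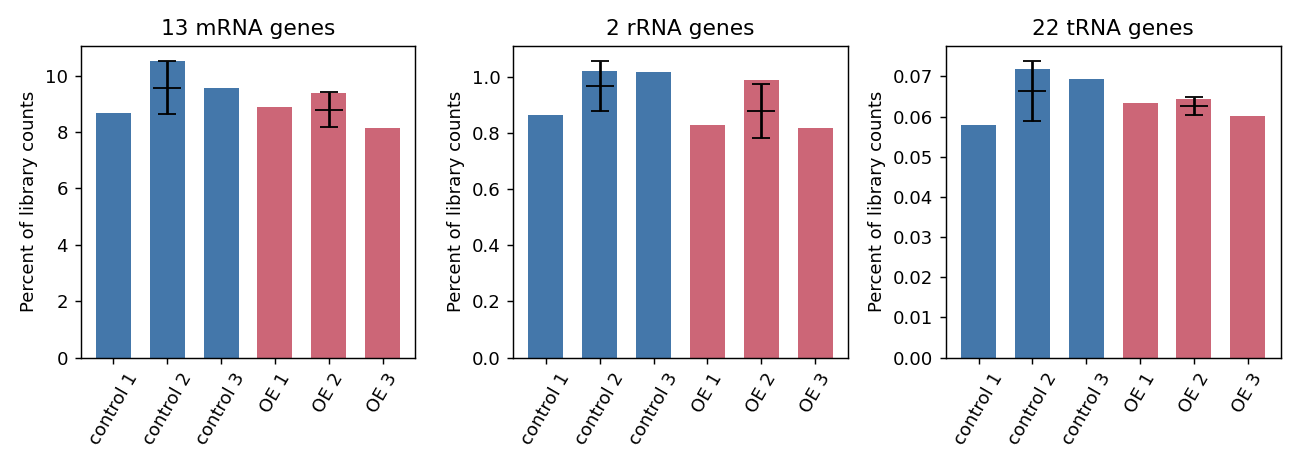
Percent of all library counts from the 13 mRNA, 2 rRNA and 22 tRNA genes of the mitochondrial genome, with 1 bar per library (blue control, red overexpression, OE) and the group mean with SD in black. The mRNA genes hold 8.13% to 10.5% of counts and the groups overlap in all 3 panels.

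Libraries were checked with the manipulated gene and with markers. Pde5a had 156, 170 and 246 counts in the control libraries and rose to 30018, 23287 and 22170. Library totals were 40653784 to 42288789 counts in control and 33013698 to 39271447 in overexpression. All 10 markers of striatal medium spiny neurons were detected in every library, with summed levels of 3891 to 6909 CPM (counts scaled to a common library size with TMM factors) in control and 3334 to 6877 in overexpression. All 10 choroid plexus markers were detected as well, with sums of 52.4 to 72.4 CPM in control. Under overexpression these sums were 538 and 2467 CPM for replicates 1 and 2 but 33.5 CPM for replicate 3. The 4 astrocyte markers summed to 1547 to 1741 CPM in control and 1348 to 1486 CPM under overexpression. The 6 thalamic markers, of which 1 was at 0 in at least 1 library, summed to 66.7 to 92.9 and 48.9 to 81.9 CPM. Although these sums overlapped, fold changes were negative for 5 of the 6 and positive for 1, with a median log2 of −0.68. Over all genes tested, 49.4% were negative. For 3 of the 6 the groups did not overlap, beside 8.93% of all genes tested, and none passed the test adjusted over all genes. In such bulk samples, fewer cells of a type and less RNA per cell cannot be told apart.

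Control replicate 2, the library highest in mitochondrial mRNA, also had the highest sum of medium spiny neuron markers and, at 81.5 CPM, the lowest sum of 6 cortical glutamatergic markers. Overexpression replicate 3, the lowest in mitochondrial mRNA, had the lowest medium spiny neuron sum and, at 1078 CPM, the highest cortical sum. The other control libraries had cortical sums of 468 and 851 CPM and the other overexpression libraries 268 and 543 CPM. Overexpression replicate 1 had a medium spiny neuron sum of 6877 CPM while its mitochondrial share was 9.77%. Control replicate 3 had a sum of 3891 CPM while its share was 10.6%. For control replicate 1 and overexpression replicate 2 the sums were 5178 and 5341 CPM and the shares 9.58% and 10.4%. The part of cell type or regional composition in the mitochondrial values was not tested.

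All 37 genes passed the filter on low counts and were tested with edgeR's quasi-likelihood test over 19809 genes, with Benjamini-Hochberg adjustment and a threshold of 0.05. None passed, and none had an unadjusted p under 0.05, where 3.89% of all genes tested did, or 1.64% counting only those lower in overexpression. Over all genes 1 passed, which is 0.00505% of those tested, and that gene was Pde5a. DESeq2's Wald test and limma-voom also called 0 of the 37 genes. The DESeq2 background was 0.366% of genes.

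The direction was nearly uniform. Fold changes were negative for 36 of 37 genes, beside 49.4% of all genes tested, and the median was −0.14 beside 0.002 over all genes. Since these genes are cut from shared precursors and measured in the same libraries, their signs are not independent of each other. The groups failed to overlap for 1 gene, mt-Nd4l, where 8.93% of all genes tested had groups that did not overlap.

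**Figure D3:**
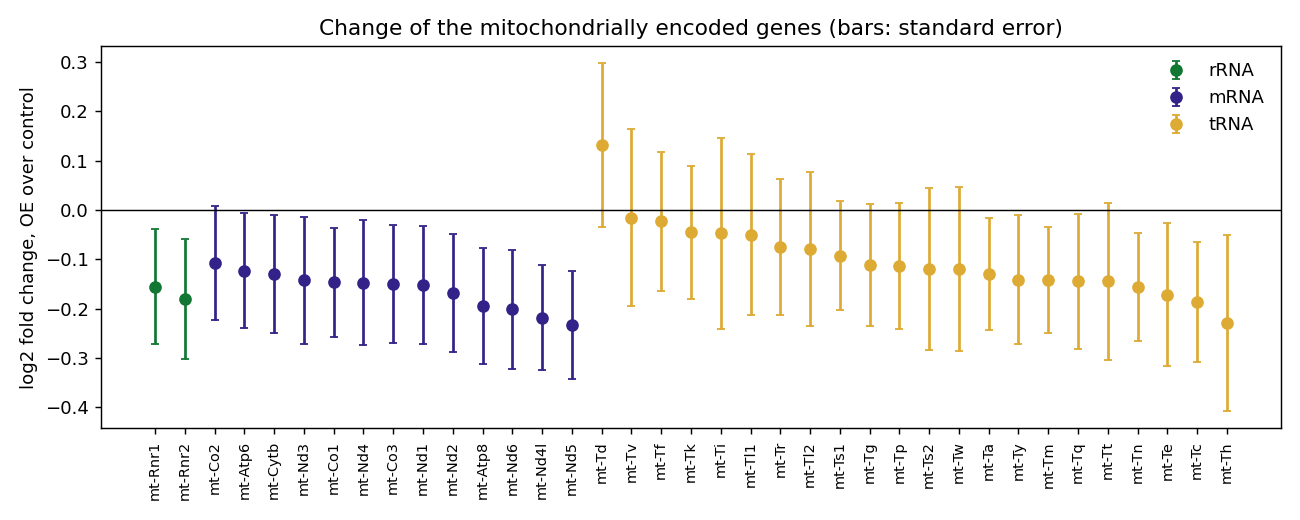
Log2 fold change of each of the 37 genes, overexpression (OE) over control, with bars of 1 standard error, ordered by class. All points but mt-Td lie below 0, between −0.23 and 0.13, and the adjusted p was 0.99996 for every gene in edgeR's quasi-likelihood test.

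Relative to its own mean over the 6 libraries, every mRNA was above the mean in control replicates 2 and 3 and below it in control replicate 1 and in overexpression replicates 1 and 3. The median deviation of the 13 mRNAs was −6.62%, 20.1% and 3.32% for the control libraries against −3.01%, 1.62% and −14.0% under overexpression. As a share of library counts, all 13 mRNAs were highest in control replicate 2, and 12 of 13 were lowest in overexpression replicate 3. The exception was mt-Nd6, which was lowest in control replicate 1. Control replicate 1 therefore lay on the side of the overexpression libraries, and overexpression replicate 2 close to the middle.

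**Figure D4:**
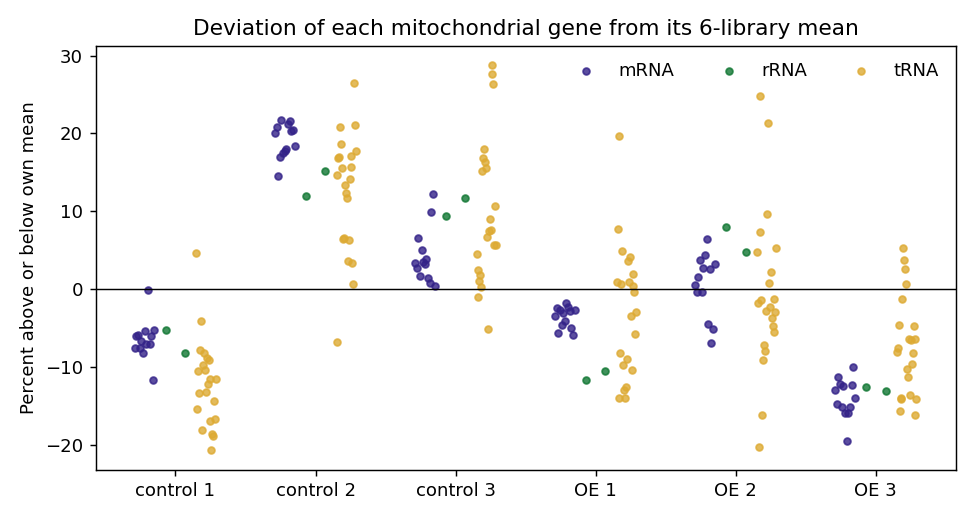
Deviation of each gene from its own mean over 6 libraries, in percent of that mean, for mRNA, rRNA and tRNA genes (1 point per gene). The mRNA points of control replicate 2 lie at 14.5% to 21.8%, and those of overexpression replicate 3 (OE 3) at −19.6% to −9.99%.

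Leaving out 1 library moved the median of the 37 genes by more than 1.5 times for some of the libraries. Dropping control replicate 2 gave −0.05, dropping control replicate 1 gave −0.22 and dropping overexpression replicate 3 gave −0.08. Leaving out control replicate 3, overexpression replicate 1 or overexpression replicate 2 moved the median less, to −0.11, −0.14 and −0.18. Without overexpression replicates 1 and 2, the libraries high in choroid plexus markers, it was −0.25. No member was called in any of these fits.

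Among the rRNA genes, mt-Rnr1 encodes the RNA of the small and mt-Rnr2 that of the large mitochondrial ribosomal subunit. mt-Rnr1 (chrM:70-1024) had 152276, 175961 and 169344 counts in control and 133632, 137573 and 125594 in overexpression. Its mean CPM was 4038 ± 354 for control and 3625 ± 444 for overexpression (SD, n = 3), and its log2 fold change was −0.16 (SE 0.12, where SE is the standard error). mt-Rnr2 (chrM:1094-2675) had 208377, 256009 and 244635 counts in control and 191447, 188733 and 176462 in overexpression. Its log2 fold change was −0.18 (SE 0.12).

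The ratio of mt-Rnr2 to mt-Rnr1 counts was 1.37, 1.45 and 1.44 in control and 1.43, 1.37 and 1.41 in overexpression, and the groups overlapped. Per kilobase, mt-Rnr1 was slightly the more abundant, at 4228 ± 371 against 3638 ± 433 CPM per kb in control (SD, n = 3). The rRNA genes held 9.03%, 8.79% and 9.58% of mitochondrial counts in control and 8.47%, 9.48% and 9.08% in overexpression, with p = 0.8 in the exact permutation test.

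Complex I, the NADH dehydrogenase, has 7 mitochondrially encoded subunits. mt-Nd5, a proton-pumping subunit, had the most negative fold change of all 37 genes. Its counts were 266524, 333818 and 300467 in control and 253768, 209236 and 222057 in overexpression. As a share of library counts these were 0.639%, 0.789% and 0.739% in control and 0.646%, 0.634% and 0.601% in overexpression. The highest overexpression library lay just above the lowest control library, so the groups overlapped. The log2 fold change was −0.23 (SE 0.11), with an unadjusted p of 0.0661 in edgeR's quasi-likelihood test.

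mt-Nd4l followed, with 46526, 55273 and 45552 counts in control and 42851, 35286 and 35022 in overexpression. Its mean CPM was 1195 ± 132 for control and 1027 ± 80.9 for overexpression (SD, n = 3). Every overexpression library was below every control library, yet the log2 fold change of −0.22 (SE 0.11) had an unadjusted p of 0.0739 in edgeR's quasi-likelihood test. Of the remaining membrane subunits, mt-Nd1 and mt-Nd2 had log2 fold changes of −0.15 and −0.17, mt-Nd3 had −0.14 and mt-Nd4 had −0.15, each with a standard error of 0.12 to 0.13.

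mt-Nd6 is the only mRNA gene on the minus strand of the annotation, the strand that carries few genes. Its counts were 81436, 108702 and 99775 in control and 81787, 69446 and 74204 in overexpression. In CPM, control replicate 1 (1943) lay below all 3 overexpression libraries (1981 to 2089), and the other control libraries (2469 and 2650) lay above them. The log2 fold change was −0.20 (SE 0.12), and mt-Nd6 made up 2.42% ± 0.159 of mRNA counts in control and 2.35% ± 0.115 in overexpression (SD, n = 3). The library kit preserves strand per the labels, but the strand setting of the counting is not given. Reads of mt-Nd6 and of plus-strand transcripts over the same bases can then not be told apart.

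mt-Cytb, the cytochrome b subunit of complex III, had 451391, 551835 and 461564 counts in control and 436671, 389988 and 366424 in overexpression. Its log2 fold change was −0.13 (SE 0.12), and its share of library counts was 1.17% ± 0.116 in control and 1.10% ± 0.0955 in overexpression (SD, n = 3). No annotated nuclear copy shared its counts to any extent, since Gm11410, the closest, held at most 2 counts.

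Of the complex IV genes, mt-Co1 was the most abundant of all mitochondrial genes. It had 1117073, 1329821 and 1218690 counts in control and 1053971, 956137 and 941278 in overexpression, or 2.68% to 3.14% of library counts in control and 2.55% to 2.90% in overexpression. The log2 fold changes of mt-Co1, mt-Co2 and mt-Co3 were −0.15, −0.11 and −0.15, with standard errors of 0.11 to 0.12. mt-Co2 thus had the mRNA fold change nearest to 0.

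For the ATP synthase, mt-Atp8 had 90287, 115224 and 97925 counts in control and 86830, 76410 and 73287 in overexpression. Its log2 fold change was −0.19 (SE 0.12). mt-Atp6, which is translated from the same mRNA, had 240932, 301837 and 261789 counts in control and 239740, 213793 and 205341 in overexpression. Its log2 fold change was −0.12 (SE 0.12). For both, the difference between group means in CPM was smaller than the SD in control.

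Within the mitochondrial pool as deposited, the complexes kept similar shares in all 6 libraries. Counts of the chromosome 1 copies, which concern genes of complexes I, IV and V, were not added to these shares. Complex I genes held 35.9% ± 0.530 of mRNA counts in control and 35.4% ± 0.4996 in overexpression (SD, n = 3). For complex III these shares were 12.3% ± 0.324 and 12.4% ± 0.206, for complex IV 42.5% ± 0.730 and 42.8% ± 0.525, and for complex V 9.27% ± 0.0988 and 9.34% ± 0.049999 (SD, n = 3). Exact permutation tests gave p = 0.4, 0.5, 0.5 and 0.3 in that order, and an adjusted p of 0.709 for each. The direction turned for complex IV without control replicate 2 (−0.142 in place of 0.273 percentage points) and for complex III without control replicate 3 (−0.0025 in place of 0.182).

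Of 37 genes, 3 (8.11%) had shares of mitochondrial counts that did not overlap between the groups, and all 3 were higher in overexpression. This is near the 8.93% of all genes tested whose groups did not overlap in CPM, which is a different measure. mt-Co2 held 5.19%, 5.22% and 5.09% of mitochondrial counts in control and 5.36%, 5.36% and 5.29% in overexpression. mt-Atp6 held 6.03%, 6.14% and 6.06% in control and 6.25%, 6.21% and 6.18% in overexpression. The third was the tRNA gene mt-Td, at 0.00440% to 0.00468% in control and 0.00508% to 0.00595% in overexpression. These genes were picked out after their values were seen, and no test was made of them. mt-Co2 and mt-Atp6 are copied on chromosome 1.

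Per kilobase of gene length, the order of the mRNAs in control ran from mt-Co1 at 19251 ± 1881 CPM per kb through mt-Atp8 at 12069 ± 1614, mt-Cytb at 10386 ± 1224, mt-Atp6 at 9586 ± 1184 and mt-Nd1 at 9280 ± 1231 (SD, n = 3). mt-Co2 and mt-Co3 had 8110 ± 969 and 7500 ± 831, and mt-Nd4 and mt-Nd2 had 6092 ± 858 and 5806 ± 750 CPM per kb. At the low end were mt-Nd6 at 4536 ± 708, mt-Nd4l at 4023 ± 446, mt-Nd5 at 4008 ± 491 and mt-Nd3 at 1991 ± 238 CPM per kb. The first and the last of the order stood apart from their neighbours by more than the sum of the SDs. Every other pair of neighbours in the order differed by less than the sum of their SDs. The order was the same in overexpression for all 13 mRNAs.

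That order depends on how the copied reads are read. With the counts of the copies added to their genes, as would be right if shared reads had been divided equally, mt-Atp6 had 19780 ± 2456 CPM per kb in control and took rank 2, mt-Co2 had 16225 ± 1940 and rank 3, and mt-Co3 had 14992 ± 1659 and rank 4 (SD, n = 3). mt-Nd4l then had 8031 ± 885 in place of 4023. mt-Co1 stayed first and mt-Nd3 last under both readings.

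Within 2 partly copied genes, the copied stretch had a lower estimated level than the rest. The final 483 bases of mt-Co1, estimated from the count of Gm29216, had 6661 ± 699 CPM per kb over the 6 libraries, and the first 1062 bases, estimated from the remaining counts, had 23621 ± 2223 (SD, n = 6). The first 876 bases of mt-Nd4 had 3458 ± 411 and the remaining 502 bases had 9875 ± 1250 CPM per kb. Doubling the copied stretches, as an equal division of reads would call for, leaves both below the uncopied stretch. Reads counted at the gene but not at its copy fall to the uncopied part in these estimates. They can include reads that cross the edge of a copied stretch, which were not accounted for.

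**Figure D5:**
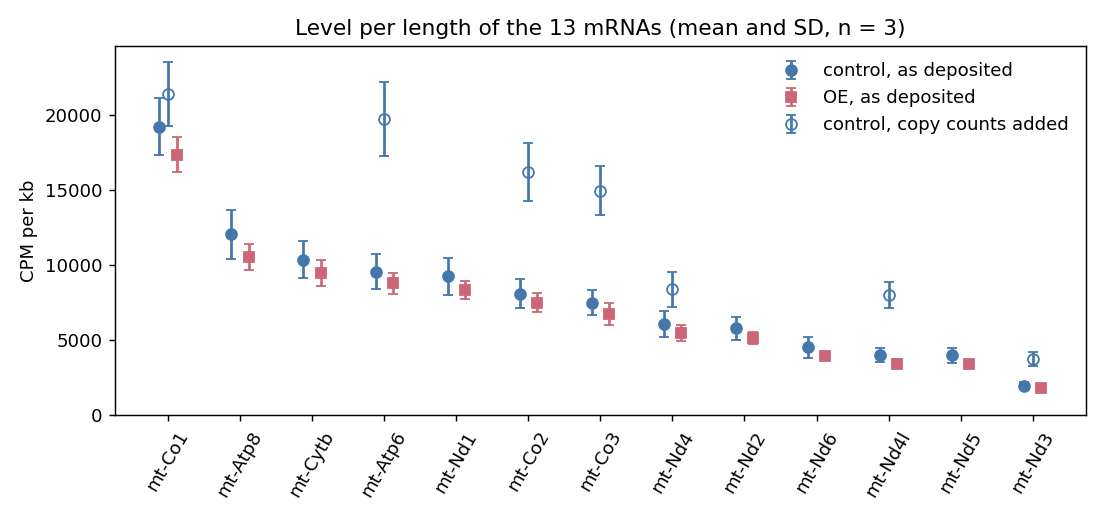
Level of the 13 mRNAs in CPM per kb of gene length (mean and SD, n = 3), ordered by the control level, for control (blue circles) and overexpression (OE, red squares), with open circles for control after the counts of the chromosome 1 copies were added. mt-Atp6, mt-Co2 and mt-Co3 move from 9586, 8110 and 7500 to 19780, 16225 and 14992 CPM per kb.

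The 22 tRNA genes are 59 to 75 bases long, and libraries of longer fragments are known to capture mature tRNAs poorly. Of the 36 neighbouring pairs of genes on the mitochondrial genome, 9 overlap, 12 touch and 15 are separated, by at most 32 bases. Counts per tRNA gene ran from 116, for mt-Tv in overexpression replicate 2, to 8439, for mt-Ts1 in control replicate 2. The genes mt-Ts1, mt-Te and mt-Tl1, for serine, glutamate and leucine, together held 56.4% ± 1.49 of tRNA counts in control and 56.7% ± 1.48 in overexpression (SD, n = 3). Their sequences are printed beside that of mt-Tv, the least counted, for valine. Capitals mark bases shared with a neighbouring gene model, here the 3 bases of mt-Ts1 shared with mt-Co1 on the opposite strand.
mt-Ts1, chrM:6870-6938, minus strand: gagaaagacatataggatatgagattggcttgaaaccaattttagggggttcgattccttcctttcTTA
mt-Te, chrM:14071-14139, minus strand: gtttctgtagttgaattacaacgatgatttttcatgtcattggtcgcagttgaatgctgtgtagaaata
mt-Tl1, chrM:2676-2750, plus strand: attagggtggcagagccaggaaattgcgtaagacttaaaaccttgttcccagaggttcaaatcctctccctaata
mt-Tv, chrM:1025-1093, plus strand: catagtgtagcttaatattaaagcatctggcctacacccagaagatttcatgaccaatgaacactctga

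mt-Ts1 had 7036, 8439 and 7942 counts in control and 6618, 6714 and 6187 in overexpression. mt-Te had 3626, 5238 and 4310 counts in control and 3969, 3313 and 3173 in overexpression. mt-Tl1 had 3011, 3848 and 3212 counts in control and 3792, 2129 and 2871 in overexpression, and in CPM overexpression replicate 1 was the highest and overexpression replicate 2 the lowest of the 6 libraries. Their log2 fold changes were −0.09, −0.17 and −0.05, with standard errors of 0.11 to 0.16.

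The tRNA genes of the minus strand were counted more than those of the plus strand. The 8 minus-strand genes held 66.3%, 66.2% and 66.4% of tRNA counts in control and 62.6%, 68.3% and 65.8% in overexpression. Their median count was 825 to 1279 over the 6 libraries, against 315 to 473 for the 14 plus-strand genes. The groups overlapped in this share. Since the strand setting of the counting is not given, reads of the plus strand across these genes cannot be told apart from their own.

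Over the 22 tRNA genes the median log2 fold change was −0.12. The extremes were mt-Th, for histidine, at −0.23 (SE 0.18), and mt-Td, for aspartate, at 0.13 (SE 0.17). mt-Td had 187, 216 and 195 counts in control and 208, 205 and 169 in overexpression, and mt-Th had 327, 467 and 512 in control and 348, 315 and 333 in overexpression. In both genes the groups overlapped.

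The direction of 10 of the 37 fold changes turned in at least 1 other fit, and all 10 belonged to tRNA genes. They included mt-Td, at −0.11 without overexpression replicates 1 and 2, and mt-Tl2, at 0.10 without control replicate 3. The 13 mRNA and 2 rRNA genes kept a negative sign in all 17 other fits.

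Mitochondrial genes are expressed by a nuclear-encoded machinery, and 6 lists of its parts and 6 lists of partner subunits and mitochondrial content were read from the same fit. None of their members passed over all genes. Of 15 genes of mitochondrial transcription, 8 had positive and 7 negative fold changes, with a median of 0.003. Among those with the smallest p, the coactivator Ppargc1a had 45.6 ± 5.24 CPM for control and 40.2 ± 2.14 for overexpression, and the nuclear receptor Esrra had 49.3 ± 5.27 and 53.8 ± 0.959 CPM (SD, n = 3). Of 15 genes of mitochondrial DNA replication and nucleotide supply, 6 were positive, with a median of −0.01, and the mitochondrial DNA polymerase Polg had 59.0 ± 0.495 and 62.7 ± 3.32 CPM (SD, n = 3).

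Of 40 genes of mitochondrial RNA processing, modification and turnover, 19 were positive with a median of −0.003, and 1 had an unadjusted p under 0.05, a smaller share than the 3.89% of all genes tested. That gene was Rcc1l, whose mean CPM was 10.6 ± 1.07 for control and 12.97 ± 1.30 for overexpression (SD, n = 3). Among 20 translation and ribosome assembly factors the median was 0.01 with 11 positive. Among 20 mitochondrial aminoacyl-tRNA synthetases and related enzymes, which charge the tRNAs described above, it was 0.008 with 11 positive, and the histidine enzyme Hars2 had 24.1 ± 0.719 and 27.3 ± 1.69 CPM (SD, n = 3).

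The 80 mitochondrial ribosomal protein genes had a median of 0.02 with 51 positive, and 2 had an unadjusted p under 0.05, again a smaller share than the 3.89% of all genes tested. Mrpl32 had 13.1 ± 1.17 CPM for control and 16.9 ± 2.40 for overexpression, and Mrpl2 had 17.5 ± 1.15 and 20.3 ± 0.437 CPM (SD, n = 3). The 12 genes taken as markers of mitochondrial content had a median of 0.0007 with 6 positive. Among those with the smallest p, the chaperone Hspd1 had 136 ± 1.35 CPM for control and 128 ± 5.51 for overexpression, and citrate synthase, Cs, had 208 ± 4.92 and 195 ± 6.36 CPM (SD, n = 3). In both the groups did not overlap, and no gene of the list had an unadjusted p under 0.05.

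Among the nuclear-encoded partner subunits, medians were 0.03 for 37 subunits of complex I (27 positive), 0.02 for 9 of complex III (8 positive), 0.02 for 17 of complex IV (11 positive) and 0.01 for 17 of the ATP synthase (12 positive), beside 0.009 for the 4 subunits of complex II. The difference between mitochondrially and nuclear-encoded subunits was not tested.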

How the data were processed

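Striatal RNA was extracted with Trizol and made into strand-specific TruSeq libraries, per the labels' protocols. The authors deposited raw, whole-number counts per Ensembl gene, with 1 file for each sample. The build was mm10, and the tools listed are STAR 2.5.3a, DESeq 1.16.1, Cuffnorm and FastQC 0.11.5, with no roles, per the submitters' processing notes. Neither the counting program nor its handling of reads with several alignments is given in these sources.

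Of 55335 identifiers, 55154 matched GENCODE M21, which uses the same assembly. Groups were taken from sample titles. No replicate pair was within sampling noise (chi-square per degree of freedom 19.1 to 49.6). The group comparison used edgeR 4.0.16 under R 4.3.3 (TMM, filterByExpr, robust quasi-likelihood F-test, Benjamini-Hochberg over 19809 genes, threshold 0.05). Standard errors are the absolute log2 fold change over the square root of F. Shares were tested with exact two-sided permutation tests (scipy 1.17.1). Copies were found with blastn 2.17.0 among M21 transcripts (at least 100 bases, at least 90% identity). DESeq2 1.42.0, limma-voom (limma 3.58.1), other size factors and filters, a replicate block and left-out libraries were alternatives. All 37 mitochondrial genes may be named, and from each nuclear list the 3 members with the smallest p, of which some are given. The members and lists were chosen with earlier results of these data known.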

Additional observations from a re-analysis of the deposited data

How the results depend on the processing

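No mitochondrial gene and no gene of the 12 nuclear lists was called in any of 17 other fits, and the smallest adjusted p of any mitochondrial gene was 0.694. The median log2 fold change of the 37 genes stayed negative in all 17, from −0.25 to −0.05. Over all genes, the number called was 1 in the edgeR fit, 86 with DESeq2, 6 with limma-voom, 3 without a filter, 5 without overexpression replicates 1 and 2, and 1 to 2 when 1 library was left out. The cause was not tested.

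With replicate number as a block, 3 genes were called over all genes and 0 mitochondrial genes, whose median was −0.13. Deviations from the group means of same-numbered libraries correlated at −0.07, −0.12 and 0.25, so the numbers were not taken as pairs, and not every library correlated best with its own number.

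Counted per kb, the group difference of the tRNA share of mitochondrial counts was 0.240 in place of 0.0197 percentage points, and that of the complex V share of mRNA counts was −0.0868 in place of 0.0728. Counting per kb gives short genes more weight. Other differences within the pool also turned. Complex III was at −0.052 and mt-Nd6 at 0.050 without overexpression replicates 1 and 2. With 1 library left out, differences ran from −0.0025 to 0.300 for complex III, −0.142 to 0.576 for complex IV, −0.152 to 0.0057 for mt-Nd6, −0.168 to 0.318 for the mRNA share and −0.352 to 0.150 for the rRNA share, and the mRNA share per kb was at −0.160. Signs of tRNA genes turned as follows. Without overexpression replicates 1 and 2, mt-Ta was at 0.0080 and mt-Td at −0.11. When 1 library was left out, fold changes ran from −0.075 to 0.027 for mt-Tf, −0.12 to 0.091 for mt-Tv, −0.22 to 0.080 for mt-Tl1, −0.25 to 0.067 for mt-Ti, −0.11 to 0.00012 for mt-Tk, −0.20 to 0.032 for mt-Tr, −0.26 to 0.056 for mt-Ts2 and −0.22 to 0.10 for mt-Tl2.

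Alternatives leaving out the chromosome 1 copies or adding them to their genes were chosen after seeing the data and gave medians of −0.14 each. Genes of under 10 CPM, such as mt-Tv and mt-Tf, had the least depth.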

Other observations

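Lars2, the nuclear gene of the mitochondrial leucyl-tRNA synthetase, which charges mt-Tl1 and mt-Tl2, varied between libraries far more than the rest of its list. It was picked out after its values were seen. Its level was 181, 183 and 60.8 CPM in control replicates 1 to 3 and 64.1, 59.3 and 201 CPM in overexpression replicates 1 to 3, a ratio of 3.39 between the highest and the lowest library. Among the other 19 members of the synthetase list this ratio was 1.07 to 1.41. The nuclear rRNA gene CT010467.1, which the annotation places on chromosome 17, separated the libraries in the same way, at 1792, 1765 and 476 CPM for the control libraries against 500, 391 and 1805 CPM under overexpression. Gm23935 separated them likewise, at 41.3, 37.2 and 12.3 CPM for the control libraries against 11.5, 9.96 and 45.4 CPM under overexpression. The mitochondrial rRNA genes did not, as mt-Rnr2 was at 4971, 6241 and 6054 CPM for the control libraries against 4850, 5677 and 4710 CPM under overexpression. The split crossed the groups, and none of Lars2, CT010467.1 and Gm23935 was called (log2 fold changes of −0.39, SE 0.67, −0.58, SE 0.80, and −0.44, SE 0.78). The source of the split was not tested.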
